A study of Homo sapiens with 2 samples.

Results

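Glycolysis and the response to low oxygen were described in Panc1, a cell line derived from a human ductal carcinoma of the pancreas, through 38 genes: 23 glycolysis enzymes and transporters and 15 other genes known to be induced by hypoxia. The rule that names them used no measured values, but the members were chosen with earlier results of these data known. They were found among 23595 measured genes by the gene name in the files or, where that name was old (PKM2 for PKM, ERO1L for ERO1A, JMJD1A for KDM3A, VEGF for VEGFA, BHLHB2 for BHLHE40), by gene ID. All 38 were measured, on 85 transcript rows of 3 probes each. The cells were Panc1 pretreated with DMSO, the solvent control, for 24 h, or with clofibrate, a lipid-lowering fibrate and an agonist of the nuclear receptor PPARalpha, for 24 h. Each group had 1 array of total RNA, so the data hold 1 DMSO sample and 1 clofibrate sample. Both were cultured in serum-containing medium in an incubator, and neither label names a low-oxygen treatment. No dose of clofibrate was given in the sources used here. In its design text the study asks which genes differ between these groups.

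Glycolysis splits glucose into pyruvate in the cytosol. Cells with little oxygen, and many cancer cells with oxygen, turn that pyruvate into lactate and export it. Under low oxygen the transcription factor HIF-1, a pair of HIF1A and ARNT, escapes destruction. It binds hypoxia response elements, whose core reads ACGTG or GCGTG, near glucose transporter, glycolysis, angiogenesis and mitophagy genes. Prolyl hydroxylases of the EGLN family mark HIF subunits for destruction when oxygen is present, and EGLN1 and EGLN3 are themselves HIF targets. Pancreatic ductal tumours are known for poor perfusion and high glycolytic flux.

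With 1 array per group there was no test, and no difference has a replicate check. All differences are log2 values, clofibrate minus DMSO, of intensities that the authors normalized with RMA. A gene's level was the mean of its transcript rows. For scale, each difference can be set beside the SD over genes of like level, which ran from 0.21 to 0.45 at the levels of the 38 genes. That SD holds both measurement noise and real differences. The median intensity of all rows was 402 on both arrays, so a change shared by most genes could not be seen. The background of random probes was at 5.61 (DMSO) and 5.59 (clofibrate) on the log2 scale, and every member row lay above them, the lowest at 6.86. The epithelial keratin KRT8 read 9.64 on both arrays, and vimentin, the intermediate filament of mesenchymal cells, 12.03 and 11.87. Of 5 duct or epithelial markers, KRT8 and KRT18 (9.41 and 9.51) were above the median level of all genes. KRT7 (8.22 and 8.18), KRT19 (5.65 and 5.12) and EPCAM were below this median level, as were all 3 leukocyte markers and all 3 endothelial markers. Of 4 fibroblast markers only COL1A1, a collagen chain, was above it (9.93 and 9.84). Of 6 PPARalpha targets read as a check of the treatment label, 2 lay above 0, ANGPTL4 (7.38 and 8.68) and CPT1A (7.97 and 8.37).

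The promoters of 5 genes that read higher with clofibrate on all their rows, and that have 1 promoter window in the table used, are printed here to show where hypoxia element cores lie. They were chosen after their values and matches were seen, and each carries ACGTG. Some other members that meet both terms have no ACGTG in their window, among them PFKL, PFKFB4 and ENO1. They are the 250 bases before the start of ANKRD37 (chr4:185396591-185396840, plus strand), PGK1 (chrX:78103998-78104247, plus), GPI (chr19:34364742-34364991, plus), BNIP3 (chr10:131981924-131982173, minus) and EGLN1 (chr1:231422288-231422537, minus), from RefSeq on GRCh38.p14, 5′ to 3′. Capitals mark ACGTG on either strand, so CACGTG carries it on both.
ANKRD37: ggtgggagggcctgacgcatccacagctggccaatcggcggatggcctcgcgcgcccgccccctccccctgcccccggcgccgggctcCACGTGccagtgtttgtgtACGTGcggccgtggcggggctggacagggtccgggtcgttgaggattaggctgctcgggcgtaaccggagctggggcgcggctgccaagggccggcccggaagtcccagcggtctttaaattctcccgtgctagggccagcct
PGK1: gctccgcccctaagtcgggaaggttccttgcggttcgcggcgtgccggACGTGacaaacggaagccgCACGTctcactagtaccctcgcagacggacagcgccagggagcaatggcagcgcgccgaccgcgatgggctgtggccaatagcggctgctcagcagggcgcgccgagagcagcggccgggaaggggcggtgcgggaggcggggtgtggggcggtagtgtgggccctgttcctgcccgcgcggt
GPI: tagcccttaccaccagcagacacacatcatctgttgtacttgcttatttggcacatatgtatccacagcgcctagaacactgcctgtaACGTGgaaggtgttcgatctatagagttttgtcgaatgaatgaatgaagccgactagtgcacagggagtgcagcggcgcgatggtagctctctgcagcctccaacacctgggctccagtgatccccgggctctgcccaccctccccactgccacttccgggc
BNIP3: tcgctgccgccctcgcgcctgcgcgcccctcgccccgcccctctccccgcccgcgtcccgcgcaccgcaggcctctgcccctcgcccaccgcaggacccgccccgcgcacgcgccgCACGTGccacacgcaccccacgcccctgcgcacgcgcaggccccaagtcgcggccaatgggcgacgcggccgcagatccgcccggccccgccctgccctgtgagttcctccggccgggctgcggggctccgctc
EGLN1: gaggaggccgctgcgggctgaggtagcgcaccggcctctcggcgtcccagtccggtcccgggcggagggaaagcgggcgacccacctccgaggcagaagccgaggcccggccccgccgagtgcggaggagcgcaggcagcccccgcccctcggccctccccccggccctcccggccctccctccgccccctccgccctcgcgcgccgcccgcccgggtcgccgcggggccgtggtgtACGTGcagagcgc

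The letters ACGTG stood at 2 places before ANKRD37 and 2 before PGK1, and at 1 place each before GPI, BNIP3 and EGLN1. Over both strands, 21 of the 33 members with a promoter window had ACGTG in at least 1 window (63.6%), against 21.7% of all 27305 genes in the table. Among genes in the top quartile of level (mean of both arrays) the shares were 66.7% of 21 members and 30.8% of 3931 genes. GCGTG, which cannot overlap ACGTG by more than 1 end letter, was in at least 1 window of 54.5% of the 33 members and 36.2% of all genes. Among genes of the top quartile the order was the other way for GCGTG, at 47.6% of members and 55.5% of genes. Members had more windows per gene (63 windows for 33 genes) than all genes did (35116 for 27305), which raises a share counted over genes. Counted over windows, ACGTG was in 41.3% of member windows and 18.5% of all windows, and in the top quartile of level in 38.1% and 24.4%. GCGTG was in 36.5% of member windows and 32.2% of all, and in the top quartile in 26.2% and 46.9%. A match is a run of letters and not a measured binding site. The list was drawn up to hold known hypoxia-induced genes and HIF-1 targets, so a higher share of ACGTG may be built into that choice. The shares are thus no result of the treatment. The 21 members with ACGTG had a median difference of 0.12 and the 12 without it 0.16, with ranges of -0.21 to 0.64 and -0.13 to 0.53 that overlap over most of their length.

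**Figure D1:**
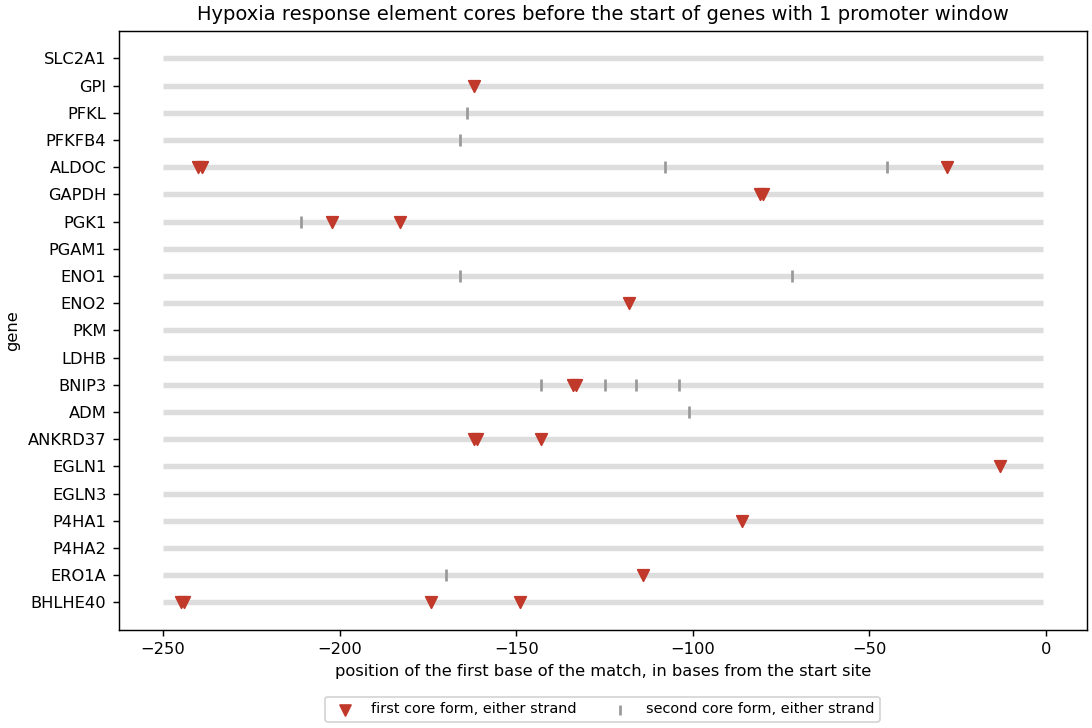
Position of hypoxia element cores before the start of the 21 members with 1 promoter window, in bases from the start site (x axis); each grey bar is a window of 250 bases. Red triangles are the first core form, ACGTG, and grey ticks the second, GCGTG, on either strand. PGK1 carries 3 matches between 211 and 183 bases before its start, and PKM, LDHB, SLC2A1, PGAM1, EGLN3 and P4HA2 carry none in this window.

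Most of the 38 genes read slightly higher with clofibrate, and few differed by much. In bulk RNA, a difference in all cells and one in a share of the cells cannot be told apart. Of the 38, 28 lay above 0 and 10 below, while 50.4% of all genes lay above 0. The share of genes above 0 was 54.6% in the top quartile of level, where 18 of 24 members did. The median difference was 0.13 for the 23 glycolysis genes and 0.09 for the 15 others, against 0.00 over all genes and 0.03 over genes in the top quartile of level. ANKRD37 was the only member at least 1.5-fold higher, and none was 1.5-fold lower. This is 1 of 38 in a comparison where 4.53% of all genes passed 1.5-fold upward and 4.62% downward, so past that fold the members do not stand out. No member was 2-fold different, as were 1.03% of all genes upward and 0.911% downward.

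Smaller differences lay mostly on 1 side of 0. In all, 11 members were higher by more than the SD of genes of like level and 1 was lower, where 13.9% of all genes were higher by that much and 14.1% lower. The 11 were HK1, GPI, PFKL, PFKFB4, PGK1, ENO1, SLC16A3, VEGFA, BNIP3, ANKRD37 and EGLN1, and the 1 lower gene was BNIP3L. They include enzymes of upper and lower glycolysis, a lactate exporter, an oxygen sensor and a secreted growth factor. In the top quartile of level these counts were 8 and 0 of 24 members, against 16% and 14.6% of genes. Of the 29 members with several transcript rows, 15 had every row above 0, 3 every row below 0, and 11 had rows on both sides. Over all genes with 2 or more rows, 22.8% had every row above 0 and 23.3% every row below. In the top quartile of level these shares were 30.2% and 24.8%. Of the 85 member rows, 4 were at least 1.5-fold higher and 1 was at least that much lower, where 6.41% and 6.42% of all rows were. Rows of 1 gene share the array and often the transcript, so they are not replicates of the treatment.

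**Figure D2:**
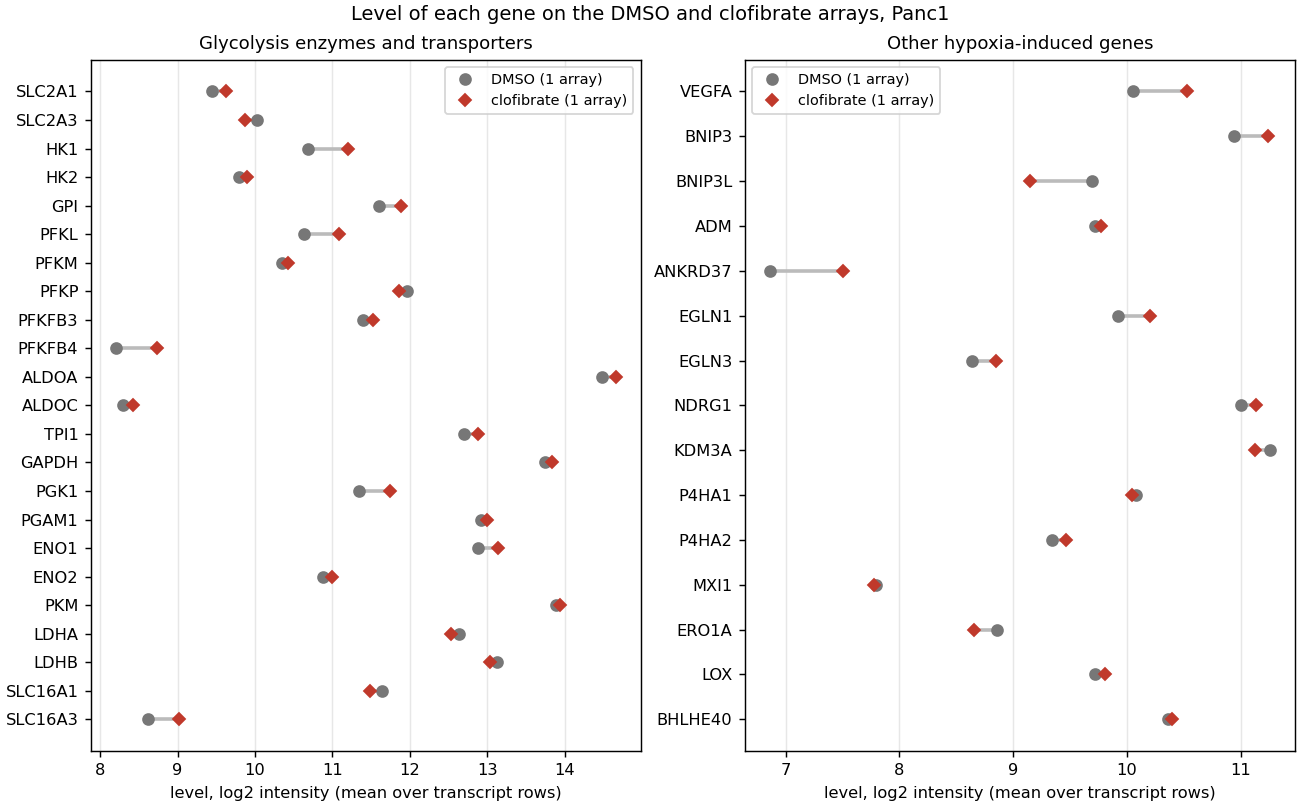
Level of each gene on the DMSO array (grey circles) and the clofibrate array (red diamonds), in log2 intensity (x axis), as the mean over the gene's transcript rows; there is 1 array per group and so no error bar. The red diamond lies to the right in 18 of 23 glycolysis genes (left panel) and 10 of 15 other hypoxia-induced genes (right panel).

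**Figure D3:**
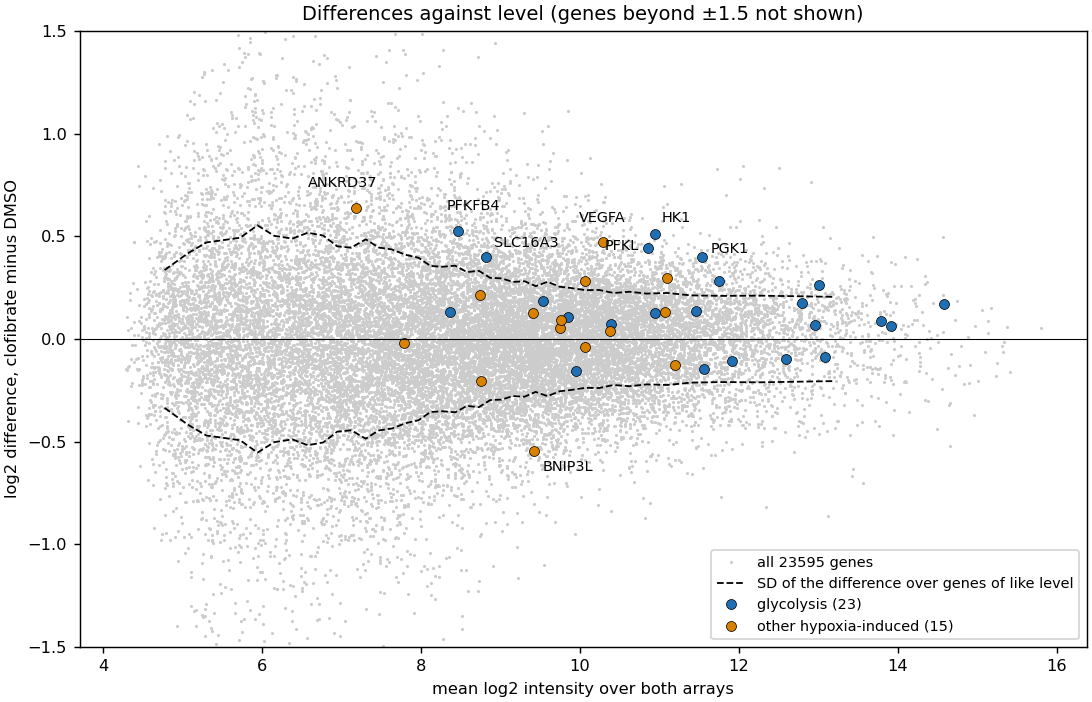
Log2 difference, clofibrate minus DMSO (y axis), against the mean log2 intensity of both arrays (x axis), for all 23595 genes (grey) and the 38 members (blue, glycolysis; orange, other hypoxia-induced genes). The dashed lines are the SD over genes of like level; 11 members lie above the upper line and only BNIP3L below the lower.

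Glucose entry differed little. SLC2A1, the basal glucose transporter GLUT1, read 9.44 with DMSO and 9.63 with clofibrate and so differed by 0.19 on its 1 row. SLC2A3, the high-affinity transporter GLUT3, read 10.03 and 9.87, with both rows below 0 (-0.24 and -0.07). The 2 transporters thus lay on opposite sides of 0, each by less than the SD of genes of like level (0.28 and 0.25).

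The hexokinases trap glucose in the cell as glucose 6-phosphate. HK1, the form found in most tissues, read 10.69 with DMSO and 11.20 with clofibrate, which is 0.51 or 1.42-fold higher and beside an SD of 0.22. It rests on 1 row, NM_000188 (hg18, chromosome 10, 70748628 to 70831641). HK2, the form that HIF-1 is known to induce, read 9.80 and 9.90, with rows at 0.08 and 0.13. So the larger difference of the pair was in HK1. GPI, which converts glucose 6-phosphate to fructose 6-phosphate, read 11.60 and 11.89 and was 0.28 higher, with rows at 0.38 and 0.19.

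Phosphofructokinase is the committed step, and its subunit genes did not read alike. PFKL, the liver-type subunit, read 10.64 with DMSO and 11.08 with clofibrate and so differed by 0.44, with rows at 0.41 and 0.48 (hg18, chromosome 21, 44544357 to 44571689 for NM_001002021). PFKM, the muscle-type subunit, read 10.35 and 10.42, and its 4 rows ran from -0.09 to 0.35. PFKP, the platelet-type subunit, read 11.97 and 11.86, a difference of -0.11. PFKL was the only subunit beyond the SD of genes of like level, which was 0.22 for PFKL and PFKM and 0.21 for PFKP.

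PFKFB3 and PFKFB4 make fructose 2,6-bisphosphate, which activates phosphofructokinase, and both are known HIF-1 targets. PFKFB4 read 8.20 with DMSO and 8.73 with clofibrate and so differed by 0.53, with rows at 0.34, 0.50 and 0.74. Its mean level was just under the median of all genes, where the SD was 0.36. PFKFB3 read 11.39 and 11.53, 0.14 higher, with 3 rows between 0.04 and 0.19. All 6 rows of the pair lay above 0.

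Aldolase and triosephosphate isomerase yield the triose phosphates. ALDOA, the main aldolase of proliferating cells, read 14.49 with DMSO and 14.66 with clofibrate, with rows at 0.06, 0.17 and 0.29. ALDOC, the brain-type aldolase, read 8.30 and 8.43, with rows at 0.28 and -0.02. TPI1 read 12.70 and 12.88 and was 0.17 higher as the mean of 4 rows, of which 3 lay between 0.20 and 0.30. The brightest TPI1 row lay at -0.05, so that gene's sign depends on the row.

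The energy-yielding steps after the triose phosphates all read above 0. PGK1, phosphoglycerate kinase and a classic HIF-1 target, read 11.34 with DMSO and 11.74 with clofibrate and so differed by 0.40 or 1.32-fold, with rows at 0.32, 0.34 and 0.54 (hg18, chromosome X, 77246424 to 77268980 for NM_000291). ENO1, the common enolase, read 12.87 and 13.14 and was 0.26 higher, with rows at 0.23, 0.24 and 0.32. PGK1 and ENO1 were the members of this segment beyond the SD of genes of like level (0.21 for both). GAPDH, often used as a loading control, read 13.75 and 13.84, with rows from -0.04 to 0.17. PGAM1, phosphoglycerate mutase, read 12.92 and 12.99, and its rows agreed at 0.07 and 0.07. ENO2, the neuronal enolase and a HIF-1 target, was 0.12 higher (10.87 and 11.00), and PKM, pyruvate kinase, 0.06 higher (13.88 and 13.95). These 6 genes thus ran from 0.06 to 0.40, with a median of 0.11. GAPDH, PGAM1, ENO1 and PGK1 have processed pseudogene copies, so their probes are open to cross-hybridisation.

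Both lactate dehydrogenase genes lay slightly below 0, as PFKP did among the enzymes before them. LDHA, the subunit that favours lactate formation and is induced by HIF-1, read 12.63 with DMSO and 12.54 with clofibrate and so differed by -0.10 on 1 row. LDHB, the other main subunit, read 13.13 and 13.04, with rows at -0.24, -0.05 and 0.03. Both lay within the SD of genes of like level, which was 0.21 for each.

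Lactate leaves through monocarboxylate transporters. SLC16A3 encodes MCT4, the hypoxia-induced exporter, and read 8.61 with DMSO and 9.01 with clofibrate and so differed by 0.40. Its rows disagreed in size, with BC112267 at 0.75 (8.74 and 9.50) and NM_004207 at 0.05 (8.48 and 8.53). SLC16A1 encodes MCT1, and read 11.64 and 11.49, with rows at -0.40, -0.14 and 0.09. The brightest SLC16A1 row lay above 0 and the other 2 below it. Neither gene was 1.5-fold different as a mean.

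**Figure D4:**
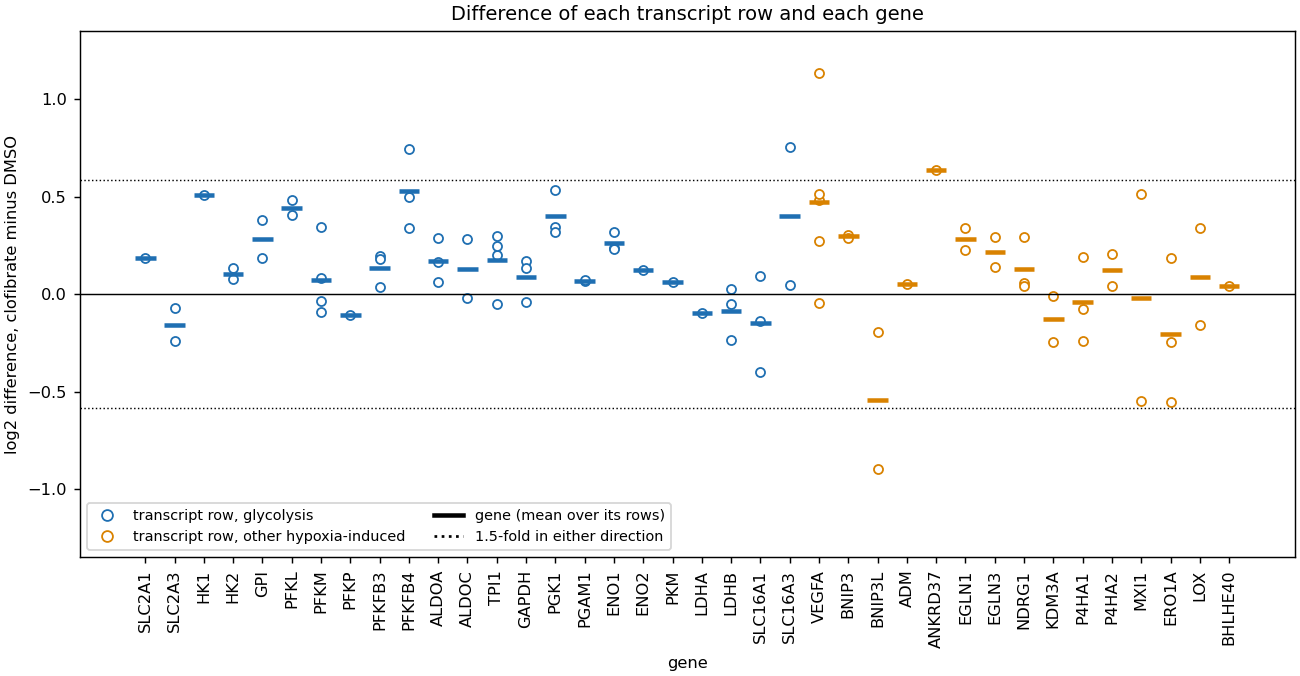
Log2 difference, clofibrate minus DMSO (y axis), of each transcript row (open circles) and of each gene as the mean of its rows (bars), for the 23 glycolysis genes (blue) and the 15 other hypoxia-induced genes (orange). Dotted lines mark 1.5-fold in either direction. The 5 VEGFA rows spread from -0.05 to 1.14 and the 2 MXI1 rows from -0.55 to 0.51, while the 3 ENO1 rows and the 2 BNIP3 rows lie close together.

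VEGFA had the widest spread of rows among the 38 genes, and its mean was higher with clofibrate. VEGFA encodes the growth factor that draws new vessels into tissue with little oxygen. As the mean of 5 rows it read 10.06 with DMSO and 10.53 with clofibrate and so differed by 0.47. The dimmer the row, the larger its difference was. The brightest, AF323587 (hg18, chromosome 6, 43853873 to 43860535), read 13.27 and 13.22, a difference of -0.05. The next, M27281, read 11.00 and 11.27, a difference of 0.27. NM_001025366 read 9.89 and 10.38, a difference of 0.48, and S85192 read 8.50 and 9.01, a difference of 0.52. The dimmest row, AY263145 (chromosome 6, 43846961 to 43853539), read 7.62 and 8.75, 1.14 or 2.20-fold higher, and was the only member row past 2-fold (1.44% of all rows were 2-fold higher). The brightest and the dimmest VEGFA rows cover separate parts of the gene on hg18, so which transcripts each row reads was not settled here. ADM, which encodes the vasodilator adrenomedullin, read 9.73 and 9.78, a difference of 0.05.

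BNIP3 and BNIP3L, 2 related receptors that direct mitochondria to autophagy, lay on opposite sides of 0. BNIP3 read 10.94 with DMSO and 11.24 with clofibrate, and its rows were at 0.29 and 0.30. BNIP3L, also called NIX, read 9.70 and 9.15, a difference of -0.55. By its brightest row alone it was at -0.19, within the SD of genes of like level (0.26). Its rows were at -0.19 (BC001559, 10.77 and 10.57) and -0.90 (NM_004331, 8.63 and 7.73). The second was the only member row at least 1.5-fold lower, where 6.42% of all rows were. Only the dimmer row thus carried a large difference, while both rows of BNIP3 gave the same value to within 0.02.

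Both HIF prolyl hydroxylase genes among the 38 lay above 0. EGLN1 encodes PHD2, the main HIF prolyl hydroxylase, and read 9.92 with DMSO and 10.20 with clofibrate and so differed by 0.28 with rows at 0.23 and 0.34. EGLN3 encodes PHD3 and read 8.64 and 8.85, with rows at 0.14 and 0.29. All 4 rows of the pair lay above 0, EGLN1 by more than the SD of genes of like level (0.24) and EGLN3 by less (0.33). EGLN2, the third gene of the family and no member of the list, read 10.05 and 10.11, a difference of 0.07.

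Genes for nuclear proteins lay on both sides of 0. ANKRD37, a small ankyrin repeat protein and HIF-1 target, read 6.86 with DMSO and 7.50 with clofibrate, which is 0.64 or 1.56-fold higher. It rests on 1 row at a low level (hg18, chromosome 4, 186554833 to 186558384), where the SD of genes of like level was 0.45. KDM3A, a histone H3 lysine demethylase, read 11.26 and 11.13, with rows at -0.24 and -0.01. BHLHE40, a transcriptional repressor also called DEC1, read 10.36 and 10.40. MXI1, a MYC antagonist, had a mean difference of -0.02 that hides rows at 0.51 (8.04 and 8.55) and -0.55 (7.55 and 7.00), so no direction can be read from it.

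Collagen and secretory pathway enzymes and NDRG1 differed by little. P4HA1 and P4HA2, subunits of the collagen prolyl hydroxylase, differed by -0.04 (10.08 and 10.04) and 0.12 (9.34 and 9.47). The rows of P4HA1 ran from -0.24 to 0.19, and those of P4HA2 were 0.04 and 0.21. LOX, lysyl oxidase, which cross-links collagen, read 9.72 and 9.81, with rows at -0.16 and 0.34. ERO1A, the oxidase that drives disulphide formation in the endoplasmic reticulum, read 8.86 and 8.65, with rows at -0.55, -0.25 and 0.18. NDRG1, a stress-responsive gene widely used as a hypoxia marker, read 11.00 and 11.13, with rows at 0.04, 0.06 and 0.29. None of these 5 genes lay beyond the SD of genes of like level.

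Genes around the pathway were read from lists drawn up by function, though some of their values were already known, and they gave a mixed picture. The 17 HIF subunits and oxygen-sensing components had a median of -0.06, with 7 above 0 and 10 below, and none was 1.5-fold different. The members furthest from 0 at or above the median level were RBX1 (-0.34), ELOB (0.33), HIF1AN (0.32) and EP300 (-0.28). RBX1 and ELOB belong to the ubiquitin ligase that destroys HIF subunits, HIF1AN hydroxylates HIF in its activation domain, and EP300 is a coactivator of HIF. HIF1A and ARNT are named here for their role, after their values were seen. HIF1A read 10.47 with DMSO and 10.22 with clofibrate, and ARNT 9.65 and 9.45. Both HIF-1 subunit genes thus read slightly lower with clofibrate, ARNT by less than the SD of genes of like level (0.28) and HIF1A by a little more (0.22). HIF1A is regulated mainly through protein stability, which these arrays do not measure.

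A further 33 hypoxia targets had a median of 0.04, with 20 above 0 and 13 below. Of these, 3 were at least 1.5-fold higher and none 1.5-fold lower, where 4.53% and 4.62% of all genes were. Of the 3, 2 lay below the median level. DDIT4, an inhibitor of mTORC1, read 10.33 and 10.94, a difference of 0.61. ANGPTL4, also a PPARalpha target, was 1.30 higher. CA9, the tumour carbonic anhydrase, had a DMSO value (5.56, against 6.43 with clofibrate) at or below the random probes. With that value set to the random probes CA9 was 1.78-fold higher. It rests on 1 row, where the SD of genes of like level was 0.55. The clofibrate value carries noise too, so 1.78-fold is not a firm lower bound. CA9 and ANGPTL4 were the 2 dim genes and are named because they were past the fold. Others at or above the median level were GBE1, the glycogen branching enzyme, at 0.40, WSB1, a ubiquitin ligase adaptor, at 0.37, and PLOD1, a collagen lysyl hydroxylase, at 0.29.

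The 29 other glycolysis isoforms and regulators had a median of 0.01, with 15 above 0 and 14 below. Of these, 16 lay below the median level of all genes, and the 13 at or above it had a median of 0.12. The 13 include PGAM4 (13.25 and 13.29), PGK2 (10.98 and 10.87) and LDHC (9.77 and 9.89), named as relatives of PGAM1, PGK1 and LDHA. Cross-hybridisation between these relatives and the members was not tested. TIGAR, which lowers fructose 2,6-bisphosphate, was lower at -0.50 on 1 row (9.58 and 9.08). SLC16A8, a monocarboxylate transporter, was higher at 0.49, also on 1 row (8.58 and 9.07). LDHD, the D-lactate dehydrogenase, was at 0.27 and BSG, the chaperone of MCT1 and MCT4, at 0.24. FBP1 and SLC16A7, both dim, are named because their measured values differed by more than 1.5-fold. FBP1, the gluconeogenic enzyme that opposes phosphofructokinase, read 6.45 with DMSO and 8.16 with clofibrate and so differed by 1.71 on 1 row, where the SD of genes of like level was 0.49. SLC16A7, which encodes MCT2, read 5.79 and 4.70, but its clofibrate value lay below the random probes. With that value set to the random probes SLC16A7 was 1.15-fold lower on 1 row, which does not reach 1.5-fold.

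Branches that draw on glycolysis were read beside it. The 9 pentose phosphate genes had a median of 0.08, with 6 above 0, and TKT, transketolase, was at 0.31, RPIA at 0.28 and RPE at -0.24. The 13 genes of mitochondrial pyruvate entry had a median of -0.05, with 6 above 0. DLAT, the E2 subunit of pyruvate dehydrogenase, was at least 1.5-fold lower on its 1 row (11.73 and 11.08, a difference of -0.66). Of all genes, 4.62% were that much lower. DLD, the E3 subunit of pyruvate dehydrogenase, was at -0.32. MPC2, a subunit of the mitochondrial pyruvate carrier, was at 0.51 on 1 row and PDK2, a pyruvate dehydrogenase kinase, at 0.29. The medians of the 5 lists ran from -0.06 to 0.08, beside 0.13 for the glycolysis genes and 0.09 for the 15 hypoxia-induced genes. This order depended in part on dim genes. Over genes at or above the median level, the medians were 0.12 for 21 glycolysis members and 0.09 for 13 hypoxia-induced members. By the same filter they were 0.12 for the 13 other glycolysis isoforms and 0.12 for 8 pentose phosphate genes. The remaining lists stayed lower than the members, at -0.10 for 13 HIF and oxygen-sensing genes, 0.02 for 20 further hypoxia targets and 0.01 for 11 genes of mitochondrial pyruvate entry.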

How the data were processed

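Total RNA of 2 Panc1 samples, 1 per treatment, was labelled (Cy3) and run on 1-colour NimbleGen arrays, per the labels. The deposited intensities are linear values, 1 per transcript row. The authors used RMA, according to the submitters' processing notes, whose version and settings were not stated there. The method usually corrects background and normalizes between arrays, so shifts shared by most genes would be lost. Per the file headers, 45031 of 45033 rows summarise 3 probes, with transcript positions on hg18.

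Intensities were converted to log2. The 42947 rows with a symbol were grouped into 23595 genes; gene IDs of 38916 rows matched RefSeq (GRCh38.p14), used for current symbols; other rows kept their deposited symbol. A gene level was the mean of its rows. Every member was named, with up to 4 genes of each surrounding list. The members and lists were chosen with earlier results of these data known. No test was possible with 1 array per group; counts used 1.5-fold, and the SD over genes of like level used 40 equal bins. The fold and call steps were tested on simulated data. Promoter windows (33 of 38 members) came from RefSeq. Precision is limited by the number of arrays. Alternatives were centring, quantile normalization and loess (limma 3.58.1, R 4.3.3), the brightest row, removal of a loess on log10 span, level filters, a 2-fold threshold, the enzymes alone and the series value table. Python 3.11.15 was used with pandas 2.3.3, numpy 2.4.6, statsmodels 0.14.6 and matplotlib 3.10.9. The value of 1 gene that the naming rule takes is not reported here.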

Additional observations from a re-analysis of the deposited data

How the results depend on the processing

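The median difference of the 23 glycolysis genes stayed between 0.13 and 0.17 under centring, quantile normalization, loess on mean level, the brightest row and removal of the trend with span, and was 0.12 over members at or above the median level or in the top quartile of level and over the 17 enzymes alone. That of the 15 other hypoxia-induced genes ran from 0.06 (trend with span removed) to 0.19 (brightest row). The series value table held the same intensities and changed nothing. The count of members at least 1.5-fold higher was 2 with the brightest row, where SLC16A3 joined ANKRD37. It was 0 over members at or above the median level, over those in the top quartile and at the 2-fold threshold. The count lower stayed 0 under every setting run. Of all genes, 6.12% were 1.5-fold higher with the brightest row. Among genes at or above the median level 1.31% were, and in the top quartile 0.542%. The counts of higher members thus do not set them apart. With the brightest row 6 of 38 members lay on the other side of 0 (PFKM, TPI1, SLC16A1, VEGFA, P4HA1 and MXI1), and with the trend with span removed 2 did (P4HA1 and MXI1). The order of single genes also moved with the brightest row, where SLC16A3 was at 0.75, above ANKRD37 at 0.64, and BNIP3L at -0.19, less far below 0 than ERO1A at -0.25. The other 32 kept their sign under all 6 settings, 25 of them above 0. Some of these settings could hardly change a sign, so this count says little about robustness. The series value table was identical, and the array medians were nearly equal, so centring moved values by almost nothing. The 9 members with 1 row have the same value with the brightest row. No paired analysis was possible because there was 1 array per group, so leaving out a replicate could not be done either.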
